A study of Mus musculus with 24 samples.

Results

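The genes described here encode the proteins of the cytosolic ribosome, in the inner medulla of the mouse kidney. They were chosen by name and level: symbols of the form Rpl or Rps with a number and at most 1 letter, together with Rplp0, Rplp1, Rplp2 and Rpsa, annotated as protein coding and with a mean CPM (counts scaled to a common library total) of at least 10 over all 24 libraries. Of 55416 gene identifiers in the deposited count table, 83 had such a symbol, 80 of these were protein coding and 75 reached the level, 45 of the large subunit and 30 of the small subunit. The mean level alone is a measured value used in the choice, and the genes were singled out with their response to cisplatin already known, so the counts of changed genes below describe the family and are not independent evidence about it. Just above the level stood Rpl13a at a mean of 26.3 CPM, Rps27l at 78.9 CPM and Rpl38 at 128 CPM, and just below it Rps10 at 5.55 CPM, Rpl24 at 1.54 CPM and Rpl3l at 0.679 CPM. In Rps10 and Rpl24, 20.6% and 47.0% of exon bases lie in another gene on the same strand. Reads assigned to Rps10 and Rpl24 are thus uncertain, and their low counts may not reflect their expression. Whether this overlap lowered their counts was not tested. All 75 genes passed the filter on low counts.

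The libraries were made from poly(A) RNA of C57BL/6 mice aged 9 to 10 weeks, 72 h after 1 intraperitoneal injection, and formed 4 groups: male cisplatin (15 mg/kg, 6 libraries), male saline (6 libraries), female cisplatin (15 mg/kg, 5 libraries) and female saline (7 libraries). Cisplatin is a platinum drug that crosslinks DNA and injures kidney tubules. The 8 markers of collecting duct principal cells summed to 5068 to 11148 CPM across all libraries, while 6 thick ascending limb markers, which belong to the outer medulla and cortex, summed to 1179 to 14118 CPM. Total counts were 18084242 to 27279102 per library. The labels do not say that each library is 1 animal, so a p-value here reflects only how far libraries spread, which may in part be technical.

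A ribosome joins a small subunit, which decodes the mRNA, to a large subunit, which forms the peptide bond, and each holds ribosomal RNA and a set of proteins made in the cytosol and imported into the nucleolus for assembly. The mRNAs of these proteins are among the most abundant in most cells and typically begin with a C followed by a run of pyrimidines, the terminal oligopyrimidine (TOP) tract, through which mTOR signalling and the protein LARP1 control their translation and stability. Ribosomal proteins left outside the ribosome, Rpl5 and Rpl11 above all, bind MDM2 and so stabilise p53.

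Several sequences are shown because the changes varied with coding length, and because the start of the mRNA is where the TOP tract lies. Rpl41 has the shortest coding sequence of the family, 25 codons of which 17 encode arginine or lysine, and it had the largest change in males. Its coding sequence, from exons within chr10:128548390-128548960 on the minus strand of GRCm38, has the arginine and lysine codons in capitals:

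Rpl41 coding sequence: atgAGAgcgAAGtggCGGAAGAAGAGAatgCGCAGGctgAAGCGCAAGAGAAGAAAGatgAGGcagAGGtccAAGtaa

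The stretches around the annotated start are given for 4 genes with a pyrimidine run and for Rpl41 and Rpl36a without one, from 40 bases before the start to 20 after it, from RefSeq on GRCm38.p6. Capitals mark the longest unbroken run of at least 8 C or T that lay within 20 bases of the start. Rps27 (chr3:90213629-90213688, minus strand), Rps6 (chr4:86857348-86857407, minus strand), Rpl27a (chr7:109519155-109519214, plus strand) and Rpl7a (chr2:26910767-26910826, plus strand) hold a run, whereas Rpl41 (chr10:128549149-128549208, minus strand) and Rpl36a (chrX:134585614-134585673, plus strand) hold none.

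Rps27: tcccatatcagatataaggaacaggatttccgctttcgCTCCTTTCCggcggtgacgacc
Rps6: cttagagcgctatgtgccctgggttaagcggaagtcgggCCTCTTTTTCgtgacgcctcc
Rpl27a: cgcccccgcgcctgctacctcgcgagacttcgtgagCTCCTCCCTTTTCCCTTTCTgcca
Rpl7a: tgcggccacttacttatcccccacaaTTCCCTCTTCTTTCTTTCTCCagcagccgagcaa
Rpl41: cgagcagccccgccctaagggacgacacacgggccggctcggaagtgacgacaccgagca
Rpl36a: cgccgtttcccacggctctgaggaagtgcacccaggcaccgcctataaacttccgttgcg

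Such a run was present in 26 of the 55 members matched in RefSeq (47.3%), against 15.9% of 27025 promoters of all genes. Read on the opposite strand, as a run of A or G, it was present in 3 of the 55 members (5.46%), against 17.3% of all promoters. A C at the annotated start itself, followed by 4 pyrimidines, was found in 11 members (20%), against 2.49% of all promoters. The pyrimidine run was thus more frequent in the family than in other genes, and on the strand of the mRNA. A match is a description of the letters in this window, and a start annotated some bases away from the true one would hide or create it.

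The ribosomal protein genes took a larger share of all counts after cisplatin in both sexes. In male cisplatin libraries 1 to 6 the 75 genes held 3.09%, 3.02%, 3.52%, 2.84%, 6.15% and 2.52% of the counts, against 2.41%, 2.46%, 2.41%, 2.32%, 2.35% and 2.44% in male saline libraries. Every male cisplatin library lay above the highest male saline library, library 6 by the least and library 5 far above the rest. The mean was 3.52% ± 1.33 in male cisplatin and 2.40% ± 0.0543 in male saline (SD, n = 6 each), a ratio of 1.47.

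**Figure D1:**
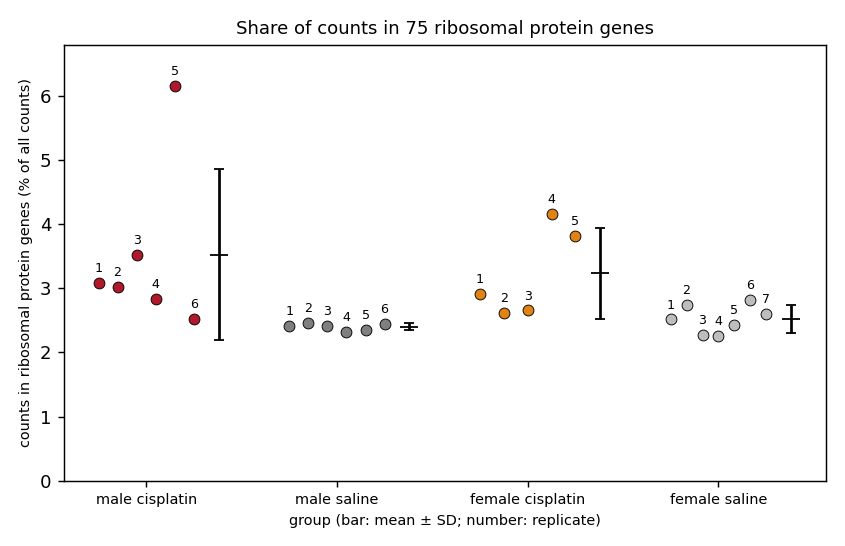
Share of all counts (vertical axis, %) that fell in the 75 ribosomal protein genes, by group (horizontal axis), 1 point per library with its replicate number, and the mean ± SD at the right of each group. All 6 male cisplatin points lie above the male saline points, 1 of them at 6.15%, while female cisplatin and female saline points overlap.

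In female cisplatin libraries 1 to 5 the share was 2.91%, 2.62%, 2.66%, 4.16% and 3.81%, against 2.51%, 2.74%, 2.27%, 2.26%, 2.43%, 2.82% and 2.60% in female saline libraries 1 to 7. Female cisplatin libraries 2 and 3 lay within the range of female saline, and libraries 4 and 5 well above it. The mean was 3.23% ± 0.710 in female cisplatin (SD, n = 5) and 2.52% ± 0.217 in female saline (SD, n = 7), a difference of 0.715 percentage points. Without male cisplatin 5, the male cisplatin mean was 3.00% ± 0.364 (SD, n = 5) and the excess over male saline was 0.599 percentage points, against 1.13 percentage points with it.

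Both subunits took part. The counts of large subunit genes over those of small subunit genes stood at 1.51 ± 0.0296 in male cisplatin and 1.52 ± 0.0173 in male saline (SD, n = 6 each), and at 1.46 ± 0.0191 in female cisplatin (n = 5) and 1.49 ± 0.0286 in female saline (n = 7). In each sex the range of this ratio in cisplatin libraries overlapped the range in saline libraries.

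Gene by gene, 72 of the 75 members rose in male cisplatin against male saline and 0 fell (edgeR's quasi-likelihood test over 18005 identifiers, Benjamini-Hochberg adjusted p under 0.05). Over all identifiers tested, 13.2% were called higher and 7.54% lower. The median log2 fold change of the members was 0.63, from 0.09 to 1.08, against a median of 0.02 over all identifiers. This count leans on 1 library: without male cisplatin 5 the same test called 32 members higher, beside 10.1% of all identifiers, with a median log2 fold change of 0.35. Still, 74 of 75 members had a positive log2 fold change then. With the male libraries fitted alone, so that they no longer shared the spread of the females, the test called 35 members, beside 8.99% of 16587 identifiers.

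The members with the largest changes in males included the shortest of the family. Rpl41, a tiny, highly basic peptide of the large subunit, had 557, 620, 889, 463, 1853 and 436 CPM in male cisplatin libraries 1 to 6, against 362, 407, 389, 360, 343 and 413 CPM in male saline libraries. The groups did not overlap, and library 5 was over 2 times as high as any other. Its log2 fold change was 1.08 ± 0.26 (SE, adjusted p = 0.0066), and 0.63 ± 0.17 without library 5 (adjusted p = 0.0155).

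Rps20, a small subunit protein of the head domain, had 390, 418, 454, 350, 1060 and 259 CPM in male cisplatin libraries, against 241, 256, 262, 239, 245 and 270 CPM in male saline libraries. Library 6 lay among the saline values and the other 5 above them. On the log2 scale the change was 0.95 ± 0.24 (SE, adjusted p = 0.00922). Rpl36a, an X-linked large subunit gene, had 179, 175, 212, 146, 403 and 115 CPM in male cisplatin libraries, against 101 to 117 CPM in male saline libraries. Here too library 6 alone fell within the saline range, and the log2 fold change was 0.92 ± 0.22 (adjusted p = 0.00719).

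Rps27, a zinc-finger protein of the small subunit, had 408, 376, 487, 384, 963 and 327 CPM in male cisplatin libraries, against 258 to 298 CPM in male saline libraries, with no overlap. Rps19, which matures the small subunit and is mutated in Diamond-Blackfan anaemia in humans, had a log2 fold change of 0.82 ± 0.19 (SE, adjusted p = 0.00663). Other members with large male changes were Rpl36 (0.85), Rpl39 (0.85), Rps27 (0.82), Rpl10a (0.77) and Rps28 (0.74), given as log2 fold changes. Each of these 5, and Rpl41, Rps20, Rpl36a and Rps19, was also called higher without male cisplatin 5.

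At the other end, Rpl7a, a large subunit protein, had 563, 492, 603, 435, 658 and 426 CPM in male cisplatin libraries, against 427, 407, 421, 428, 420 and 479 CPM in male saline libraries. The ranges overlapped, and male cisplatin 5 was only slightly above libraries 1 and 3. Its log2 fold change was 0.30 ± 0.10 (SE, adjusted p = 0.0413), the smallest among the members called higher, and 0.22 ± 0.09 without library 5 (adjusted p = 0.11). Rpl4, a core protein of the large subunit whose extension lines the exit tunnel, followed with 0.36 ± 0.12 (adjusted p = 0.0338) and likewise lost the call without library 5 (adjusted p = 0.0981).

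Members outside the call in males were Rps3 (log2 fold change 0.37, adjusted p = 0.0537), Rpl23a (0.25, adjusted p = 0.101) and Rpl13a (0.09, adjusted p = 0.763). Rps3 stands at the mRNA entry channel of the small subunit, and Rpl23a at the exit of the peptide tunnel. Counting both strands, 62.3% of Rpl23a exon bases lie in another gene, and the strand setting of the counting was not given. Rpl13a, a large subunit protein that in human cells also leaves the ribosome to silence transcripts after interferon, had 24.8, 17.3, 23.1, 18.3, 44.9 and 25.9 CPM in male cisplatin libraries, against 20.5 to 27.8 CPM in male saline libraries. Apart from library 5 its values did not exceed those of male saline, and without library 5 the log2 fold change turned to -0.15. It was the member with the lowest level, and 35.4% of its exon bases lie in another gene on the same strand, so reads assigned to it are uncertain.

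**Figure D2:**
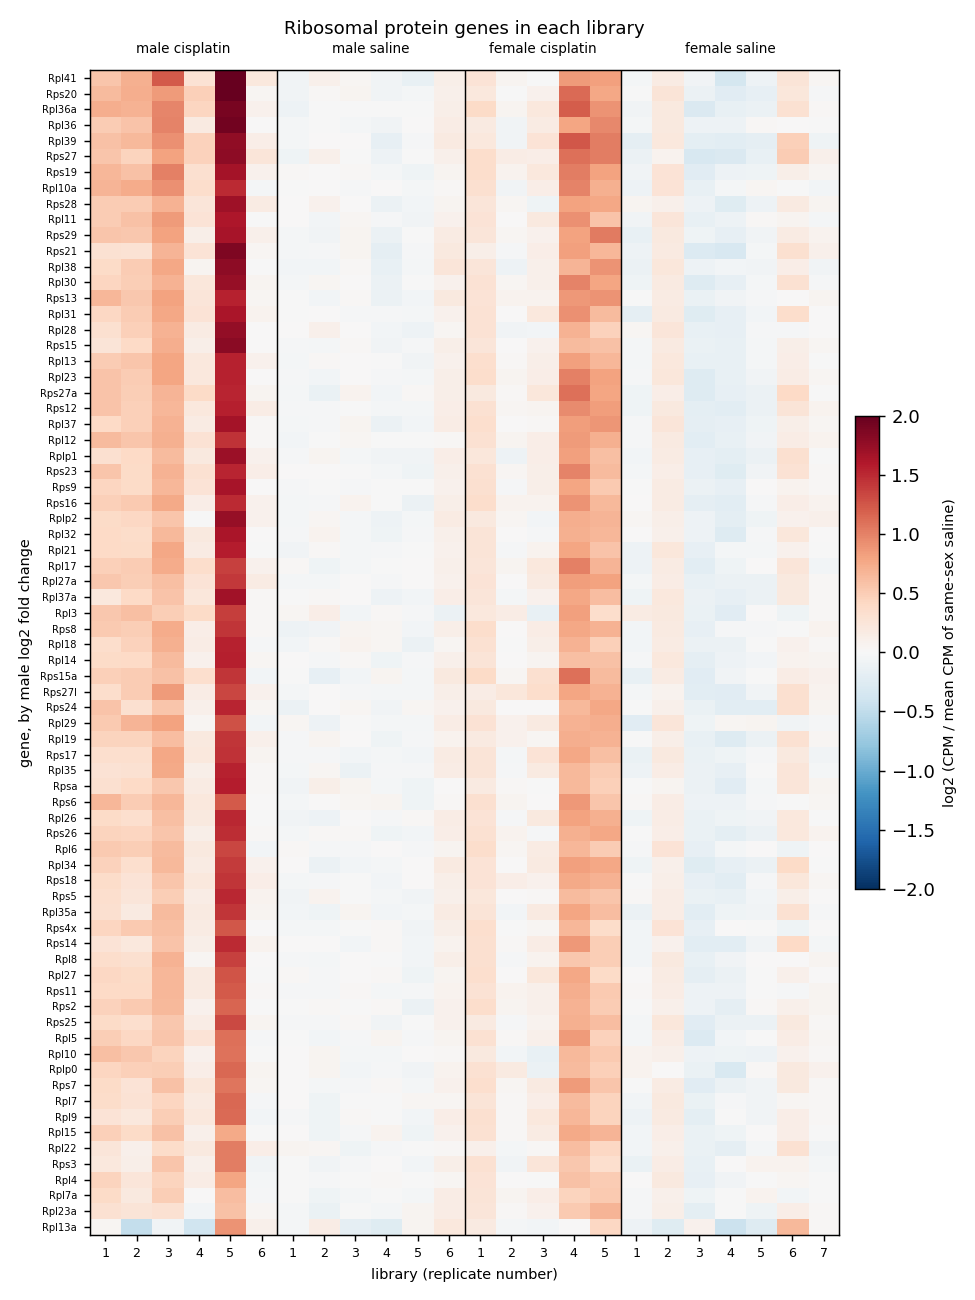
Level of 74 of the 75 genes (rows, ordered by male log2 fold change) in each of the 24 libraries (columns, by group and replicate number), as log2 of the CPM over the mean CPM of the saline libraries of the same sex. Red runs through whole columns: male cisplatin 5 is darkest, male cisplatin 6 and female cisplatin 2 are nearly white, and Rpl13a in the bottom row departs from the rest.

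The heat map of levels shows that libraries differed more than genes did. Relative to the male saline mean, the median member stood at 1.35-fold in male cisplatin 1, 1.36-fold in 2, 1.58-fold in 3, 1.14-fold in 4, 2.81-fold in 5 and 1.02-fold in 6. Above the highest male saline library stood 74 members in each of male cisplatin libraries 1, 2 and 3, 61 in library 4, 75 in library 5 and 12 in library 6. Of all identifiers tested, 30.9%, 30.6%, 33.3%, 24.5%, 36.9% and 18.7% stood above the highest male saline library in male cisplatin libraries 1 to 6. Male cisplatin 6 was thus the only library of its group in which the members did not exceed that share.

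Accordingly 12 members had all male cisplatin libraries above all male saline libraries: Rpl13, Rpl19, Rpl22, Rpl27a, Rpl41, Rps12, Rps14, Rps18, Rps19, Rps23, Rps27 and Rps28. Over all identifiers tested, 3.45% did so. Another 49 members had 5 of the 6 male cisplatin libraries above the highest male saline library. The share of all identifiers that did so was not computed.

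In females the same test called 0 members higher and 0 lower, in a comparison that called 0.2% of all identifiers higher and 0.0722% lower. All 75 log2 fold changes were positive, with a median of 0.40 and a range of 0.11 to 0.63, and 48 had an unadjusted p under 0.05, all of them higher, beside 8.73% of all identifiers higher at that level. DESeq2 also called 0. Relative to the female saline mean, the median member stood at 1.21-fold in female cisplatin 1, 1.01-fold in 2, 1.08-fold in 3, 1.72-fold in 4 and 1.54-fold in 5. Members above the highest female saline library numbered 56, 0, 8, 74 and 74 in these libraries, beside 14.7%, 12.9%, 15.4%, 27.6% and 24.8% of all identifiers, so that libraries 2 and 3 gave no excess of members. No member had every female cisplatin library above every female saline library, against 0.511% of all identifiers.

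Rpl39, an X-linked protein of the exit tunnel, had the largest female value, with 139, 113, 144, 283 and 242 CPM in female cisplatin libraries, against 106, 139, 104, 103, 106, 166 and 112 CPM in female saline libraries. Libraries 4 and 5 were high, and the other 3 lay among the saline values. On the log2 scale the change was 0.63 ± 0.23 (SE, adjusted p = 0.232). Rpl36a (0.62 ± 0.22) and Rps27 (0.62 ± 0.22) came next, with adjusted p of 0.222 and 0.224. The lowest adjusted p among the members in females was 0.15, that of Rpl15.

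Averaged over both sexes, 74 of the 75 members rose with cisplatin and 0 fell, Rpl13a being the exception, beside 16.2% of all identifiers called higher and 10.9% lower. The median log2 fold change was 0.51, from 0.10 to 0.77. Rpl36a (0.77 ± 0.16 SE, adjusted p = 0.00144), Rpl41 (0.76 ± 0.18, adjusted p = 0.00399) and Rpl39 (0.74 ± 0.16, adjusted p = 0.00225) led, followed by Rps20 (0.73), Rps27 (0.72), Rps19 (0.68), Rpl36 (0.66), Rpl10a (0.62), Rps29 (0.62) and Rps27a (0.61). Rps27a is made as a fusion with ubiquitin. An earlier analysis of these data set apart 3 libraries by composition (male cisplatin 5 and replicates 1 and 6 of female saline), and without them the count was again 74, beside 14.7% of all identifiers, with a median of 0.39.

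Whether the change differed between the sexes was tested directly, as the female minus the male log2 fold change. The test called 0 members, and 0% of all identifiers. At an unadjusted p under 0.05 it also reached 0 members, and DESeq2 called 0. The difference had a median of -0.23 and was negative in 72 of 75 members, most for Rpl41 (-0.64 ± 0.36 SE). That sign changed without the same 3 libraries, when the median was 0.06 and 56 of 75 members were positive. Member by member, the male and female log2 fold changes had a Spearman rho of 0.66 over the 75 genes, as a description.

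**Figure D3:**
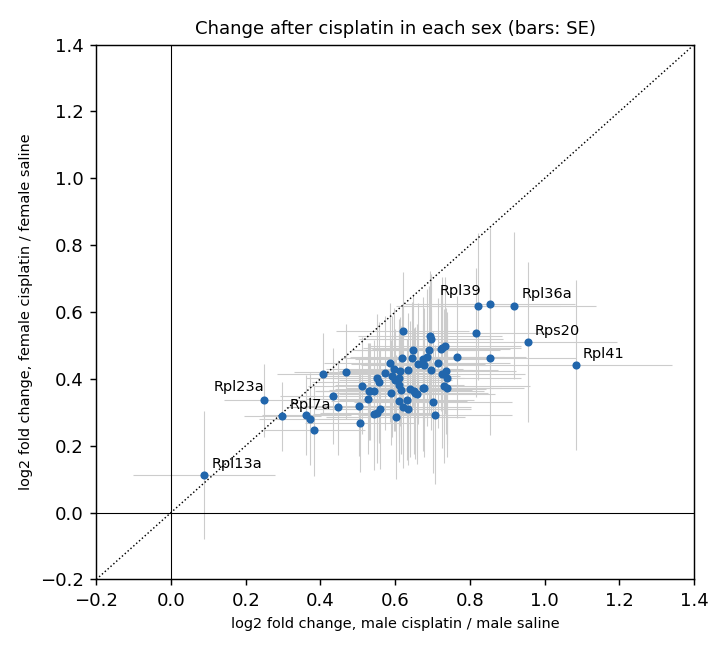
Log2 fold change of each of the 75 genes after cisplatin in males (horizontal axis) and in females (vertical axis), with bars of 1 SE and the line of equal change dotted. All points lie above 0 in both sexes, most below the line, with Rpl41 at 1.08 in males and 0.44 in females, and Rpl13a near 0.

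Between the sexes under the same treatment no member was called. Female saline against male saline gave 0 members beside 0.189% of all identifiers, with a median log2 difference of 0.07. Female cisplatin against male cisplatin gave 0 members beside 0.156% of all identifiers, with a median of -0.15, and at an unadjusted p under 0.05 both comparisons also reached 0 members. The X-linked members had male log2 fold changes of 0.92 (Rpl36a), 0.85 (Rpl39), 0.55 (Rps4x) and 0.51 (Rpl10), and female ones of 0.62, 0.63, 0.30 and 0.27 in that order. The 75 members lay on 19 chromosomes in all, X included, 14 of them on chromosome 7.

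Levels between genes were compared per coding length. The median member had 740 CPM per 1000 coding bases. Rpl41 was highest at 6967, followed by Rplp1 at 1832, Rps27 at 1568, Rps29 at 1566 and Rps24 at 1524, while Rpl13a was lowest at 43.2, below Rpl15 at 304, Rps27l at 313, Rpl23a at 395 and Rpl35 at 421, all in CPM per 1000 coding bases. Rplp1 and Rplp2 form the acidic stalk of the large subunit on Rplp0, and recruit elongation factors. Coding bases leave out the untranslated parts of the mRNA, so the level of a very short gene such as Rpl41 is overstated on this scale. Counting both strands, 62.3% of Rpl23a exon bases and 66.2% of Rpl35 exon bases lie in another gene. The strand setting of the counting was not given, so the low levels of Rpl23a and Rpl35 are uncertain. Overlap and level did not go together throughout. On the same count Rpl13a shared 35.4%, but Rpl15 and Rps27l, both below Rpl23a, shared 4.25% and 0%. Rpl31 shared 25.3% and stood at 1065 CPM per 1000 coding bases. The part of overlap in these levels was not tested.

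The stalk base Rplp0 had 1221, 1256, 1271, 997, 2002 and 942 CPM in male cisplatin libraries, against 866 to 949 CPM in male saline libraries. Again library 6 alone was inside the saline range. Log2 fold changes in males were 0.50 ± 0.15 (SE) for Rplp0, 0.68 ± 0.21 for Rplp1 and 0.66 ± 0.21 for Rplp2, with adjusted p of 0.0193, 0.0241 and 0.0285 by edgeR. All 3 lost the call without library 5, with adjusted p of 0.0584 for Rplp0, 0.0879 for Rplp1 and 0.111 for Rplp2. Rps6, whose phosphorylation is a readout of mTOR signalling, had 504, 455, 507, 367, 742 and 321 CPM in male cisplatin libraries, against 301 to 330 CPM in male saline libraries, a log2 fold change of 0.60 ± 0.15 (adjusted p = 0.0095).

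The MDM2-binding members moved with the rest. Rpl11 had 447, 472, 564, 379, 963 and 311 CPM in male cisplatin libraries, against 299 to 335 CPM in male saline libraries. Its log2 fold change was 0.74 ± 0.19 (SE, adjusted p = 0.00982). Rpl5, which forms a particle with Rpl11 and the smallest ribosomal RNA, changed by 0.51 ± 0.14 in males (adjusted p = 0.0164). Without library 5, Rpl11 was still called (0.46, adjusted p = 0.0256) and Rpl5 was not (0.35, adjusted p = 0.051). In females these 2 genes had 0.42 and 0.38 with adjusted p of 0.299 and 0.255.

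Rps27l, a paralog of Rps27 that is a p53 target in human cells, had 83.1, 93.1, 118, 72.6, 164 and 69.4 CPM in male cisplatin libraries, against 63.1 to 70.9 CPM in male saline libraries. Its log2 fold change was 0.62 ± 0.16 in males (SE, adjusted p = 0.0112) and 0.46 ± 0.16 in females (adjusted p = 0.218), beside 0.82 and 0.62 for Rps27. In female cisplatin libraries Rps27l had 73.1, 76.9, 83.9, 114 and 106 CPM, against 56.5 to 82.4 CPM in female saline libraries. In female cisplatin 2 and 3 it had the highest ratio to the female saline mean of all members. Among other paralogs, Rpl22l1 had a male log2 fold change of 0.32 ± 0.14 (adjusted p = 0.098), against 0.38 ± 0.14 for its partner Rpl22 (adjusted p = 0.0472). Rpl22 lost its call in 15 of 21 alternatives, and without male cisplatin 5 its value was 0.20 (adjusted p = 0.171).

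Members followed one another closely over the 24 libraries. The Pearson correlation of a member's log2 CPM with the mean of the other members had a median of 0.979 (n = 24 libraries), and 73 of 75 exceeded 0.9. Closest were Rpl23 (0.994), Rpl30 (0.992), Rps16 (0.992), Rpl36a (0.991) and Rps25 (0.991), and most distant Rpl13a (0.488), Rpl23a (0.876), Rpl3 (0.907), Rpl7a (0.913) and Rpl15 (0.935). In the 13 saline libraries alone the median was 0.863, and without male cisplatin 5 it was 0.966 (n = 23). These values share library, depth and scaling across genes and are descriptions without a test. How many other identifiers exceeded 0.9 was not counted, so such closeness cannot be called particular to the family.

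The spread among replicates was larger after cisplatin. The coefficient of variation of a member's CPM had a median of 41.3% in male cisplatin and 4.81% in male saline, and of 24.2% in female cisplatin and 10.3% in female saline. Over all identifiers tested these medians were 28.0%, 13.9%, 22.0% and 16.9% in that order. The male cisplatin value was 17.0% when library 5 was left out (n = 5).

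Outside the family, the genes whose log2 CPM followed the members' mean most closely over the 24 libraries were Eef1b2 (Pearson r = 0.990), a subunit of the exchange factor of elongation factor 1, Rps3a1 (0.985), a small subunit protein whose symbol falls outside the naming rule, Sem1 (0.975), Psmb1 (0.975) and Pomp (0.972), which belong to the proteasome or its assembly, and Pdcd5 (0.969).

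The change was larger in shorter genes, within the family and outside it. Over the 75 members the Spearman rho of coding length with the male log2 fold change was -0.55, and with the female one -0.50. Over 14592 other tested protein-coding genes it was -0.26 in males and -0.27 in females. In the 25 shortest members, of 75 to 396 coding bases, the median male log2 fold change was 0.69, in the 25 of middle length 0.65 and in the 25 longest, of 576 to 1257 bases, 0.54.

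**Figure D4:**
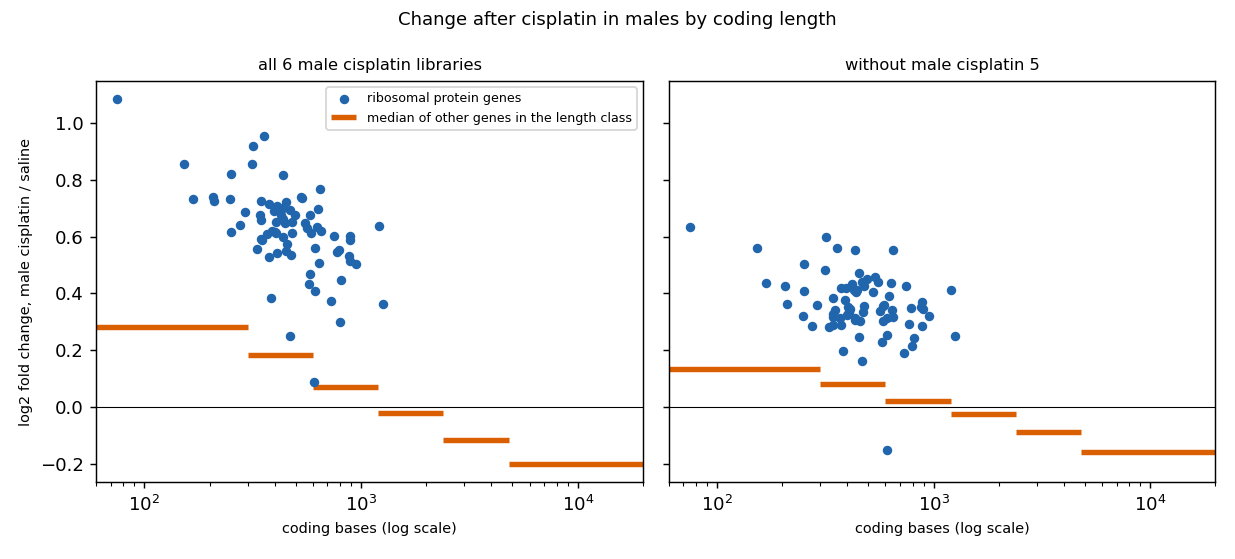
Male log2 fold change (vertical axis) against coding bases (horizontal axis, log scale) for the 75 ribosomal protein genes (points) and the median of other protein-coding genes in 6 length classes (bars), with all 6 male cisplatin libraries (left) and without library 5 (right). Nearly all points lie above the bar of their length class in both panels, and both points and bars decline with length.

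Other genes of up to 300 coding bases had a median male log2 fold change of 0.28, and 26.5% of 324 were called higher, while those above 4800 bases had a median of -0.20, with 5.54% of 668 called higher. Members exceeded other genes of like length: from above 300 to 600 bases, 43 of 44 members were called with a median of 0.65, against 20.2% of 1587 other genes with a median of 0.18. The rho was nearer to 0 without male cisplatin 5, at -0.27 over the members and -0.17 over other genes.

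The pyrimidine run did not divide the members by their change. The 26 with a run had a median male log2 fold change of 0.62 (0.09 to 0.85), and the 29 without one 0.64 (0.37 to 1.08). In females these medians were 0.40 with a run and 0.39 without.

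Related lists were chosen with earlier results of these data known. Beside the counts in males below, 13.2% of all identifiers were called higher and 7.54% lower. Without male cisplatin 5, 10.1% of all identifiers were called higher. Of 10 tested ribosome-linked genes outside the naming rule, 3 rose in males and 0 fell: Fau (log2 fold change 0.82 ± 0.24 SE), which encodes the small subunit protein eS30 as a fusion, the scaffold Rack1 (0.53 ± 0.15) and Rps3a1 (0.50 ± 0.14). Of 18 elongation factors and growth-regulated translation genes 5 rose and 0 fell, namely Eef1b2 (0.59 ± 0.16), Eef1d (0.52 ± 0.18), Eif5a (0.40 ± 0.11), Pabpc4 (0.37 ± 0.10) and Btf3 (0.35 ± 0.11). The medians of these lists were 0.37 and 0.31. When male cisplatin 5 was left out, Rps3a1 and Rack1 of the first list and Eef1b2, Pabpc4 and Eif5a of the second were called, and the medians were 0.19 and 0.12.

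Of 41 initiation factors 10 rose and 1 fell, with a median of 0.11. Eif6, which keeps the large subunit from joining early, led with 0.76 ± 0.15 (SE, adjusted p = 0.00209), and Eif4a2 fell by 0.35. Only Eif6 and Eif2b2 of this list were called higher, and 0 genes lower, when male cisplatin 5 was left out, with a median of 0.05. Of 102 ribosome biogenesis genes 5 rose, a smaller share than the 13.2% of all identifiers called higher. Another 10 fell, beside 7.54% of all identifiers, and the median was 0.02. Mdn1, the large ATPase that strips assembly factors from the pre-large subunit, fell by 0.76 (SE 0.18, adjusted p = 0.00613), and Nhp2, a protein of RNA-modifying particles, rose by 0.68 (SE 0.18, adjusted p = 0.0134). Leaving out male cisplatin 5 gave counts of 4 higher and 6 lower, with a median of -0.01.

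Of 21 genes of RNA polymerase I and its factors 2 rose and 0 fell, with a median of 0.17. These were Polr2f (0.61) and Polr2l (0.58), which are shared by all 3 nuclear RNA polymerases, and neither was called without male cisplatin 5, when Taf1d was called higher (0.52) and the median was 0.03.

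Hosts of small nucleolar RNAs, several of which are known to begin with a TOP tract like the members, had a median of 0.62, with 9 of 16 higher and 0 lower in males. Snhg9 changed by 2.07 ± 0.46 (SE, adjusted p = 0.00466), Snhg20 by 0.99 ± 0.23 (adjusted p = 0.00645) and Snhg5 by 0.72 ± 0.17 (adjusted p = 0.00736). Snhg9, Snhg20, Snhg5 and Snhg17 were called higher when male cisplatin 5 was left out, and the median was 0.51.

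Of 27 genes of p53, MDM2 and mTOR signalling 4 rose and 1 fell in males, beside 13.2% of all identifiers called higher and 7.54% lower. The median log2 fold change of the list was -0.04. Those higher were Cdkn1a (1.23 ± 0.30 SE), the p53 target that arrests the cell cycle, Eif4ebp1 (0.98 ± 0.24), a translation repressor that mTOR inactivates, Myc (0.85 ± 0.24), a driver of ribosome production, and Larp1 (0.26 ± 0.09), the TOP-binding protein. Mtor itself fell by 0.29 (adjusted p = 0.0432). With male cisplatin 5 left out, Cdkn1a (1.33), Eif4ebp1 (1.01) and Myc (0.96) were still called, Sesn2 (0.55) was called as well, and Mtor (adjusted p = 0.0872) and Larp1 (adjusted p = 0.0727) were not. The log2 value of Mdm2 was -0.13, which did not pass (adjusted p = 0.381).

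Proteins of the mitochondrial ribosome, which is a separate machine, had a median male log2 fold change of 0.22, with 22 of 77 higher and 0 lower. Mrpl33 had the largest value, 1.08 ± 0.19 (SE, adjusted p = 0.000935). Nuclear subunits of oxidative phosphorylation had a median of 0.27, with 4 of 79 higher (Cox6b2, Ndufa2, Uqcrq and Ndufa7) and 1 lower (Ndufs1). Leaving out male cisplatin 5 gave 6 higher and 1 lower (Mrpl39) among the mitochondrial ribosomal proteins, with a median of 0.08, and 1 higher (Cox6b2) and 0 lower among the oxidative phosphorylation subunits, with a median of 0.13. In females 0 genes of any of these 9 lists were called.

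**Figure D5:**
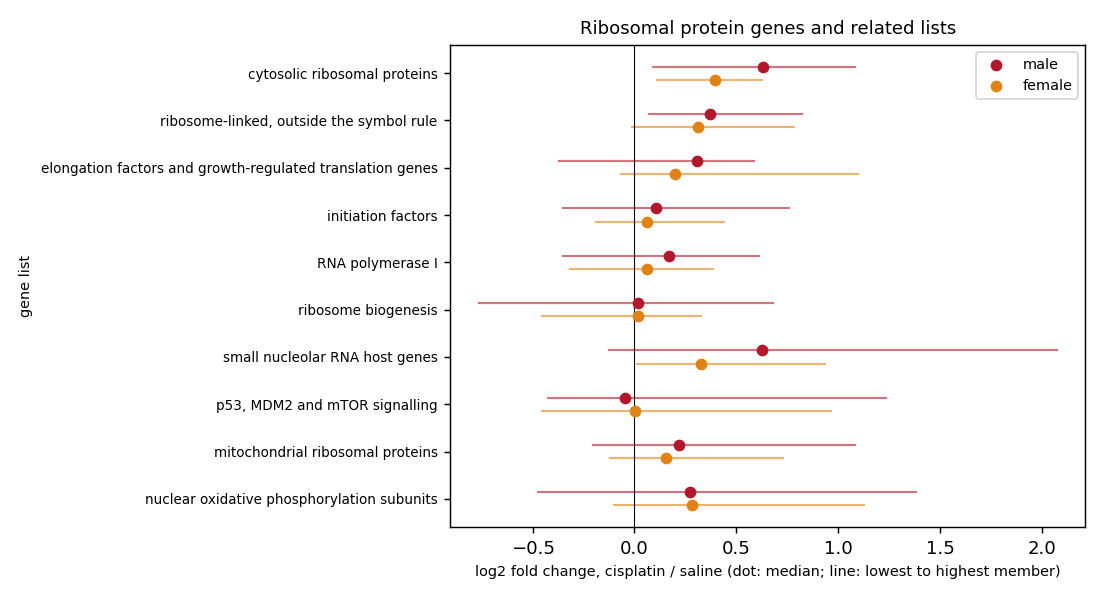
Log2 fold change after cisplatin (horizontal axis) of the ribosomal protein genes and of 9 related lists (rows), as the median (dot) and the range from the lowest to the highest tested gene (line), in males and females. The median of the ribosomal proteins is 0.63 in males and 0.40 in females, that of ribosome biogenesis genes 0.02 in both.

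Measures of injury and tissue makeup moved with the share but not in step with it. Lcn2, a secreted marker of tubule injury, had 4021, 6589, 2578, 1265, 2470 and 213 CPM in male cisplatin libraries 1 to 6, against 57.8 to 67.3 CPM in male saline libraries. Library 2, with the highest Lcn2, had a ribosomal protein share of 3.02%, while library 5, with the highest share, had less Lcn2 than libraries 1, 2 and 3. In both sexes the library or libraries with Lcn2 nearest to saline, male cisplatin 6 and female cisplatin 2 and 3 (111 and 122 CPM), also had the lowest shares of their group.

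Sums over 5 endothelial markers were 258 to 1173 CPM in male cisplatin and 1041 to 1275 CPM in male saline, and over 5 interstitial markers 69.0 to 336 CPM in male cisplatin and 385 to 453 CPM in male saline. In females the endothelial sums were 530 to 1035 CPM in cisplatin and 792 to 1458 CPM in saline, and the interstitial sums 173 to 400 CPM in cisplatin and 212 to 498 CPM in saline. Sums over 5 erythroid markers were 4.67 to 15.3 CPM in male cisplatin and 149 to 380 CPM in male saline, and 5.90 to 13.9 CPM in female cisplatin and 97.5 to 391 CPM in female saline. Male cisplatin 5 had the highest urothelial (243 CPM over 6 markers), lymphocyte (32.9 CPM over 9 markers), proximal tubule (1199 CPM over 17 markers) and macrophage sums (246 CPM over 9 markers) of its group. It also had the lowest thick ascending limb sum (2034 CPM) and the lowest sum over 4 inner medullary collecting duct and thin limb markers (2626 CPM) of its group. Mitochondrially encoded genes took 2.29% of its counts, the lowest share of all 24 libraries, against 4.12% to 6.63% in the other male cisplatin libraries. Over all 24 libraries together, 0 markers of any of these lists were at 0 throughout. Of the 9 lymphocyte markers, only 3 passed the filter on low counts. Of the 9 macrophage markers, 2 had a positive log2 fold change in male cisplatin against male saline. The median of that list was -0.42 and its range -1.50 to 2.19, so the macrophage sum does not stand for most of its markers. The part of these values in the result was not tested, except that with the tubule markers as a covariate 61 members were called higher in males, beside 9.1% of all identifiers, and 74 over both sexes, beside 11.3%. In bulk tissue a change in cell makeup and a change in RNA per cell cannot be told apart.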

How the data were processed

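Inner medulla RNA of 24 libraries was analysed from the deposited table of counts, whole numbers of reads or fragments per Ensembl gene identifier. Per the submitters' processing notes, Trim Galore 0.6.7, Subread 2.0.1 with featureCounts, DESeq2 1.28.1 and the build mm10 were named, without roles or order. The strand setting and the treatment of reads that map to several places were not given in the sources used here. This bears on ribosomal protein genes, since 58 of the 75 have at least 1 pseudogene with a matching symbol. Counts on the 299 pseudogenes with such symbols, ending in -ps, were at most 0.0189% of a library. Pseudogenes under other symbols were not included, among them Rps4l at a mean of 79.1 CPM. Reads dropped because they map to several places would not show in this share. The low share therefore does not bound the effect on the members, which was not tested. Symbols were found for 52083 identifiers, and identifiers without one held 0.24% of the counts.

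Gene type, chromosome and coding length came from GENCODE M21 (GRCm38). With the release behind the table not given in the sources, no coordinates were taken for its features. Start regions came from RefSeq on GRCm38.p6, matched by symbol. The coding sequence of Rpl41 came from the GRCm38 reference.

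Tests used edgeR 4.0.16 under R 4.3.3 (filterByExpr with a minimum count of 10, TMM scaling, 1 mean per group, glmQLFit and glmQLFTest over all 24 libraries, 18005 identifiers), with Benjamini-Hochberg adjustment over all of them and a threshold of 0.05. SE is the absolute log2 fold change over the square root of F. CPM were computed on TMM-scaled totals, except the mean CPM of the naming rule and the CPM per 1000 coding bases, which used plain totals; shares are percentages of raw counts. The fit was tested on simulated data. Alternatives were DESeq2 1.42.0, other scalings, no filter, single-sex fits, a tubule marker covariate, the replicate number as a block and leaving out each library. Library totals were 18084242 to 27279102 counts. The members, lists and rules for named genes were chosen with earlier results of these data known. Named genes are the 10 members with the largest changes among those called, those with the highest and lowest levels and correlations, X-linked members and paralogs, and up to 4 genes of each list, with members of special roles (Rplp0, Rplp2, Rps6, Rpl5, Rpl11, Rpl4, Rpl7a) added after their values were seen. Values of 1 member are not reported here. Copies of a library within a group were looked for in 61 pairs, and the lowest chi-square per gene was 7.23. The sex of 24 of 24 libraries matched the label.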

Additional observations from a re-analysis of the deposited data

Results flagged for a closer look

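Single libraries stood far from the others of their group by Dixon's test at the 95% level, which chance alone exceeds in about 1 of 20 groups. Male cisplatin 5 did so for the share of counts in ribosomal protein genes (6.15%) and for 52 of the 75 genes, among them Rpl41 (1853 CPM), Rps20 (1060 CPM), Rpl36a (403 CPM), Rpl39 (376 CPM), Rplp0 (2002 CPM) and Rpl13a (44.9 CPM). Male saline 6 did so for 9 genes, among them Rps27l (70.9 CPM), each higher or lower than in the other 5 male saline libraries. Female saline 2 did so for 4 genes, and female saline 6 for 1, Rpl13a (42.1 CPM). The cause of these values was not tested. How often these libraries stood apart over all identifiers was not counted, so the counts cannot be called particular to the family.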

How the results depend on the processing

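The number of members higher in males was 72, beside 13.2% of all identifiers. It was 35 with the male libraries fitted alone, beside 8.99%. Without the 3 libraries set apart by composition, an alternative chosen after seeing the data, it was 32, beside 10.6%. Leaving out each library of either male group in turn, it was 32 (without male cisplatin 5, beside 10.1% of all identifiers) to 74. Rpl13a turned to -0.14 in males without the 3 libraries, and leaving out single libraries gave -0.15 to 0.18. The causes were not tested. With the replicate number as a block the count was 60, beside 10.9% of all identifiers, and 73 over both sexes, beside 11.9%. The numbers were taken only to name the libraries. Deviations of same-numbered libraries had median correlations of -0.092 to 0.011 over 4 pairs of groups, with single values from -0.297 to 0.169. Differently numbered libraries were not compared, so this check cannot settle whether the numbers mark pairs or batches. Other scalings, no filter and DESeq2 gave 67 to 73 in males, for which the shares of all identifiers are not given here. Over both sexes the count was 73 to 74 in all 32 alternatives, beside 16.2% of all identifiers in the main fit. In females it was 0 in all 21. Of 462 values of the 22 named members in males, 398 kept direction and side of the threshold, 57 lost the call, 5 gained it and 2 reversed. The effect of depth was not tested.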
